A study of Mus musculus with 9 samples.

Results

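Interferon-stimulated genes other than the OAS family were followed across 2 immortalised fibroblast lines, connective-tissue cells that were grown out of mouse embryos. The genes were a list of 45 symbols, fixed by name, with earlier results of these data known. For each, the Affymetrix probe sets that carry that symbol alone were taken, and the probe set with the highest mean signal over the 9 arrays stood for the gene. Of the 45 genes, 42 had such a probe set, out of 18193 genes in the whole series, and between them they had 75. Isg15 and Psme2 had only probe sets that also carry another symbol (Gm9706 and Psme2b), and Ifi44 had none, so these 3 were not analysed here. A gene was tested if its mean signal was at least 100, which 39 of the 42 were; Mx1, Mx2 and Zbp1 lay below that. A gene that is high in 1 line can pass such a minimum through that line alone: 32 of the 39 had a mean of at least 100 in both lines, and Stat2, Irf7, Dhx58, Herc6, Rsad2, Cmpk2 and Parp14 only in the null line.

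Both lines were derived from E13.5 embryos and had become immortal spontaneously in culture. The first line lacked Suv420h1 (gene symbol Kmt5b), a methyltransferase of histone H4. It was measured untransduced and with GFP, which form the null group (2 arrays), and after reconstitution with a Suv420h1-GFP fusion protein (1 array). The second line carried wild-type Suv420h1 and was transduced with lentivirus in every case. It expressed GFP or LacZ (the control-vector group, 2 arrays), full-length PREX2 (1 array), or PREX2 cut short by a stop codon, as K278*, E824* or Q1430* (the truncated group, 3 arrays). PREX2 is an exchange factor that activates the GTPase Rac. All cells of a genotype came from a single described source, so genotype and line cannot be told apart. The untransduced null array is also the only one without a delivered gene, and no construct was repeated within a group. The labels do not say whether arrays within a group were grown separately. The p-values therefore cover the spread of these arrays, which includes differences between constructs and may otherwise be technical. Bulk RNA cannot separate a change in every cell from a change in the number of cells that express a gene.

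Type I interferons bind a receptor whose kinases activate ISGF3, a transcription factor complex that contains STAT2 and IRF9. ISGF3 binds a short promoter element, the interferon-stimulated response element or ISRE, in genes whose products sense viral nucleic acid, block viral translation or replication, or feed back on the pathway. Interferon gamma acts through another element, GAS, which is found in genes such as Irf1. Fibroblasts make and answer type I interferon, and they keep low levels of many of these transcripts without infection.

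The median log2 signal of all tested genes lay between 9.59 and 9.65 over the arrays. Over all probe sets, the median signal was 67.75 to 68.69 on the null-line arrays and 56.3 to 62.23 on the wild-type-line arrays. Of 4 tested Kmt5b probe sets, the brightest was at 442 and 432 in null cells and 295 and 469.6 in the GFP and LacZ controls. The second brightest was called higher in null cells, at 536 and 462 against 221 and 338 (log2 difference 0.81, adjusted p = 0.0398). The third brightest (chosen with its values known) was at 8.85 and 17.3 in null cells, 150.3 after reconstitution and between 118 and 182 in the wild-type line. The only tested Prex2 probe set read 452 with GFP, 677 with LacZ, 795 with full-length PREX2 and 809, 722 and 703 with K278*, E824* and Q1430*. Of the fibroblast markers, Col1a1, Col1a2 and Vim read 5254 or more on all arrays, while Dcn read 962 to 27342 and Lum 24 to 525 over the wild-type line. Thy1 read 11.2, 27.3 and 6.9 on the 3 null-line arrays and 1097 to 3641 in the wild-type line. The leukocyte genes Ptprc and Itgam read at most 25.9 and 34.4 on any array. The wild-type GFP array stood apart from the other wild-type arrays for the interferon-stimulated genes, as described below, so results that rest on it are given with and without it.

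Interferon-stimulated genes were higher in the Suv420h1-null line than in wild-type cells with a control vector. Of the 39 tested, 27 were called higher and 0 lower (32 and 0 at an unadjusted p below 0.05, which 16.9% of all genes had with a higher value), beside 10.2% of all genes tested called higher and 10% called lower (limma, 2 against 2 arrays, adjusted p below 0.05). The median log2 difference was 1.86, against -0.027 for all genes, and 28 of the 39 were higher by more than 2-fold, as were 6.4% of all genes. Over the 32 genes whose mean reached the minimum in both lines, 20 were called higher and 0 lower, with a median of 1.66, beside 9.08% and 9.52% of the 9610 genes that did so. The largest differences were in Usp18 (log2 difference 5.08), Rtp4 (4.42), Ifit1 (3.69) and Bst2 (3.69). The smallest differences, of 0.30 or less in size, were in Irf1, Samhd1 and Psme1. When the wild-type GFP array was left out, 24 of 39 were called higher (8.88% of all probe sets tested) and the median was 1.26. When the LacZ array was left out instead, 35 were called higher (13.6%) and the median was 2.44. With the untransduced null array alone 13 of 37 were called higher (2.72%), and with the GFP null array alone 15 of 38 (3.41%). The 13 were Irf7, Usp18, Rtp4, Irgm1, Trim25, Bst2, Ifih1, Rsad2, Herc6, Eif2ak2, Cmpk2, Ifit1 and Parp14, and the 15 were the same genes with Stat2 and Ifit3.

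**Figure D1:**
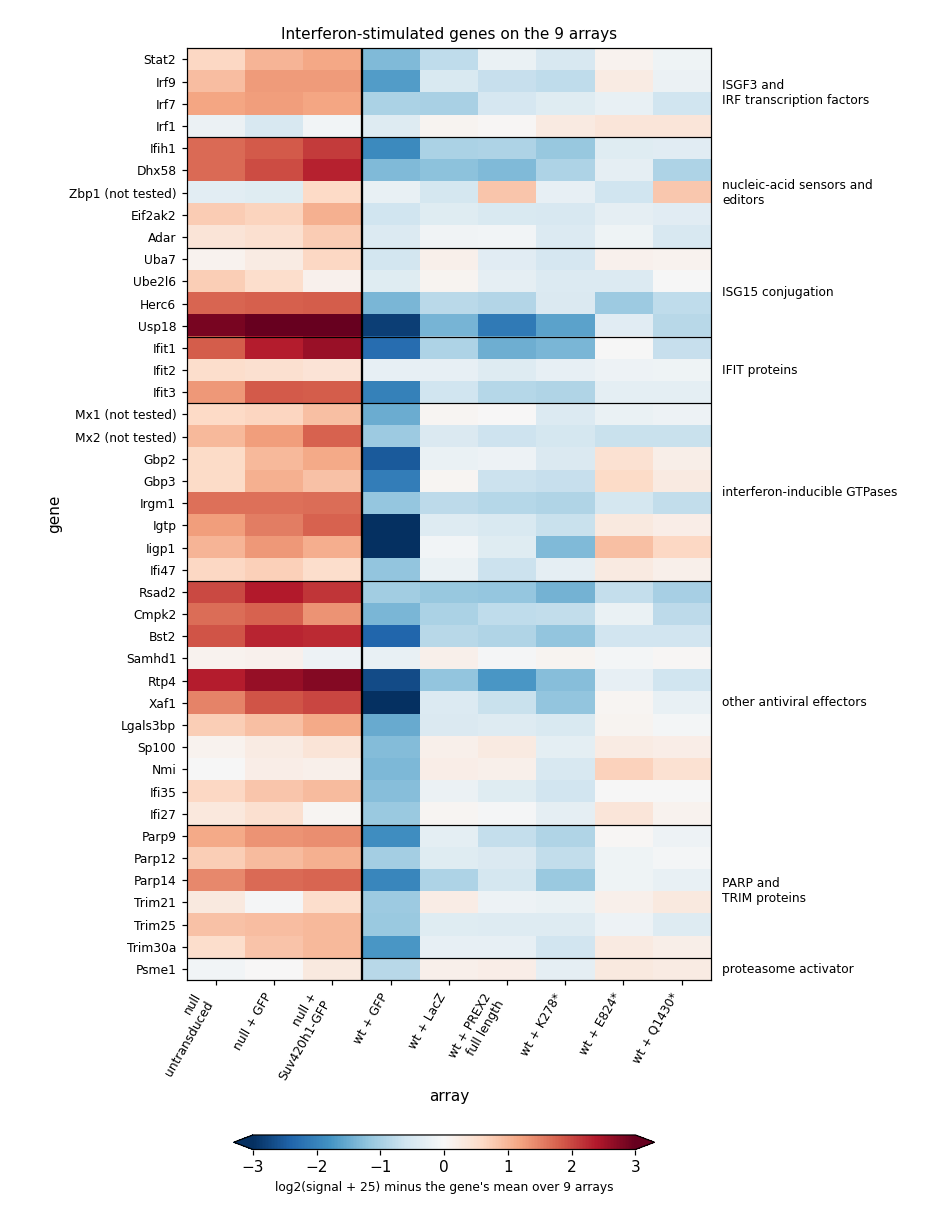
Each row is a gene and each column an array; colour gives log2(signal + 25) minus the gene's mean over the 9 arrays, with values beyond 3 in either direction drawn at the end of the scale. The 3 null-line arrays (left of the vertical line) are above all 6 wild-type-line arrays in 32 of the 42 genes drawn, and the wild-type GFP array is the lowest of the wild-type arrays in 33 of the 39 tested.

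A like result was obtained when the whole lines were compared, which adds the reconstituted and PREX2 arrays but shares the null and control-vector arrays with the first comparison. Over the means of the groups, 28 of 39 were higher in the null line and 0 lower, beside 16.7% and 17.8% of all genes tested, with a median log2 difference of 1.46. In 30 of the 39 all 3 null-line arrays lay above all 6 wild-type-line arrays, as in 20.3% of genes tested; with the 3 dim genes it was 32 of 42, as in 14.3% of all genes with a probe set. The 9 tested genes in which they did not were Irf1, Uba7, Gbp3, Samhd1, Sp100, Nmi, Ifi27, Trim21 and Psme1. Without the wild-type GFP array, Irf1 was called lower in the null line (log2 difference -0.34, SE 0.113, adjusted p = 0.0481), the only call in that direction.

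The promoters were examined for the ISRE. The genes were listed by name as interferon-stimulated, so a share above that of the whole promoter table would follow from the list, whatever the arrays read. RefSeq promoters on the GRCm38.p6 assembly, running from 250 bases before to 50 bases after the start of transcription, were matched for 32 of the 42 genes. They were searched on both strands for the core of the ISRE, GAAA followed by any 2 bases and GAAA, and separately for the GAS core TTCNNNGAA. The matches to the 2 cores overlapped in 1 gene, Bst2. The 10 genes without a matched promoter were Dhx58, Zbp1, Usp18, Mx1, Mx2, Iigp1, Rtp4, Ifi27, Parp9 and Parp14. Usp18 and Rtp4, which had the largest differences of the tested interferon-stimulated genes, thus enter no count or median by motif. The ISRE core occurred in 14 of the 32 genes (43.8%), compared with 1079 of 27025 genes in the whole promoter table (3.99%). It occurred at least 2 times in 6 of the 32 (18.8%), namely Ifit1, Ifit3, Gbp3, Irgm1, Bst2 and Trim21, compared with 0.266% of the table. In Ifih1, Eif2ak2, Trim21 and Psme1 the match lay only after the start. The GAS core occurred in 8 of the 32 (25%), compared with 9.55% of the table. A match of letters describes the sequence and does not show that a factor binds.

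The stretches that hold the ISRE core before the start are printed for the genes with 2 or more matches (other than Trim21, where they lie after it), since these carry the densest matches among genes described here, each 5′ to 3′ on the strand of its gene with the matches in capitals. Ifit1 lies at chr19:34640770-34640828 (+), Ifit3 at chr19:34583358-34583431 (+), Bst2 at chr8:71537572-71537617 (-), Irgm1 at chr11:48871421-48871465 (-) and Gbp3 at chr3:142559984-142560029 (+).
Ifit1: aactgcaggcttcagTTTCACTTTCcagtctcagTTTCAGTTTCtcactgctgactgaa
Ifit3: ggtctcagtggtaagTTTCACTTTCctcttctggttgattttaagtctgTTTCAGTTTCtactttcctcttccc
Bst2: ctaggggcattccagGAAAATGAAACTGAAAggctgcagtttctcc
Irgm1: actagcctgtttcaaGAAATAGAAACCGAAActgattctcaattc
Gbp3: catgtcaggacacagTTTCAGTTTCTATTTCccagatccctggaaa
In Bst2, Irgm1 and Gbp3 the matches overlap and form a longer run, whereas in Ifit1 and Ifit3 they stand apart.

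Single matches before the start are printed for 4 further genes on whose values the results below turn. Stat2 lies at chr10:128270261-128270300 (+), Gbp2 at chr3:142620589-142620628 (+), Igtp at chr11:58199507-58199546 (+) and Rsad2 at chr12:26456548-26456587 (-). The promoter of Irf1 held no ISRE core in this window. Its GAS match, at chr11:53769909-53769947 (+), is printed beside them for contrast. Igtp has a GAS match as well, TTCTAGGAA, which lies in its printed stretch in small letters.
Stat2: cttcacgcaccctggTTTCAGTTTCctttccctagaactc
Gbp2: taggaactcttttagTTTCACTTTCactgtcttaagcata
Igtp: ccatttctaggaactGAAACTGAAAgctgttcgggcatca
Rsad2: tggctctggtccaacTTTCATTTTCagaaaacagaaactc
Irf1: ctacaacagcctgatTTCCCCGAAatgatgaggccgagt
The 14 genes with the ISRE core had a median log2 difference of 2.38 between the null line and control vector (0.30 to 3.69, 10 called higher). The 18 without it had a median of 1.41 (-0.17 to 3.38, 12 called higher), so the ranges overlapped for most of their length. The 8 with the GAS core had a median of 0.97 (-0.17 to 3.69, 6 called higher). The 24 without it had a median of 1.84 (0.30 to 3.69, 16 called higher), so these ranges overlapped as well.

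Of the transcription factors on the list of interferon-stimulated genes, 3 of the 4 tested were called higher in the null line. Of 4 other tested transcription factors of the pathway, 1 was called higher, Irf2. Stat3, Irf3 and Irf5 were not called by their brightest probe sets (log2 differences -0.18, 0.53 and 0.09 from control vector). Signals are given here and for each later gene in the same order: null cells untransduced and with GFP, null cells after reconstitution, and then the 6 arrays of the wild-type line. Irf7, which amplifies the induction of interferon alpha genes, read 282 and 294 in null cells without and with GFP and 282 after reconstitution. In the wild-type line it read 44.2 and 43.7 with GFP and LacZ, 69.1 with full-length PREX2, and 78.8, 91 and 64 with K278*, E824* and Q1430*. Every null-line value was more than 3-fold above every wild-type value, and the log2 difference from control vector was 2.18 (SE 0.206, adjusted p = 0.000743). Irf9, the DNA-binding subunit of ISGF3, read 978 and 1256 in null cells, 1266 after reconstitution, and 140.2 and 360.0 with GFP and LacZ, 305 with full-length PREX2, and 288, 607 and 445 with K278*, E824* and Q1430*. The lines did not overlap for Irf9, but its wild-type values were spread widely, with E824* highest (log2 difference 2.17, SE 0.442, adjusted p = 0.0152). Stat2, the other ISGF3 subunit measured, read 156 and 214 in null cells, 236 after reconstitution, and 22.3 and 44.1 with GFP and LacZ, 77.5 with full-length PREX2, and 60, 102 and 82.6 with K278*, E824* and Q1430* (log2 difference 1.86, SE 0.299, adjusted p = 0.00617). Irf1, an early target of interferon gamma, was different in kind. It read 906 and 724 in null cells, 966 after reconstitution, and 778 and 1075 with GFP and LacZ, 1039 with full-length PREX2, and 1241, 1316 and 1319 with K278*, E824* and Q1430*. Its groups overlapped, and the log2 difference of -0.17 (SE 0.188) did not pass (adjusted p = 0.564).

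All 4 tested sensors and editors of nucleic acid were higher in the null line, with a median log2 difference of 2.15. Ifih1, which encodes the long double-stranded RNA sensor MDA5, read 1397 and 1548 in null cells and 1854 after reconstitution. In wild-type cells it read 92 and 202 with GFP and LacZ, 208 with full-length PREX2, and 175, 316 and 325 with K278*, E824* and Q1430*, so the lowest null-line value was above the highest wild-type value by a wide margin (log2 difference 3.20, SE 0.37, adjusted p = 0.00169). Dhx58, which encodes LGP2, a regulator of the RNA sensors, read 228 and 275 in null cells, 360.0 after reconstitution, and 6.15 and 8.18 with GFP and LacZ, 5.93 with full-length PREX2, and 15.6, 39.3 and 16 with K278*, E824* and Q1430*. Most of its wild-type values were close to the floor of the array, so the log2 difference of 3.10 (SE 0.301, adjusted p = 0.00083) understates the change of signal. Eif2ak2, which encodes the translation-blocking kinase PKR, read 1161 and 1091 in null cells, 1440.5 after reconstitution, and 437 and 518 with GFP and LacZ, 480.1 with full-length PREX2, and 479.7, 552 and 531 with K278*, E824* and Q1430*. Its wild-type values were the most even of the sensors (log2 difference 1.20, SE 0.149, adjusted p = 0.00231). Adar, an enzyme that edits adenosine to inosine in double-stranded RNA, read 633 and 674 in null cells, 826 after reconstitution, and 349 and 439 with GFP and LacZ, 449.6 with full-length PREX2, and 349, 429 and 334 with K278*, E824* and Q1430*. It was the smallest of the group, at a log2 difference of 0.70 (SE 0.181, adjusted p = 0.0343), and without the wild-type GFP array the difference was 0.55 and no longer passed. Zbp1, a sensor of Z-form nucleic acid, was below the minimum and read at most 56.9 on any array.

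The enzymes that attach or remove the ubiquitin-like protein ISG15 were split. Usp18, which removes ISG15 and restrains the type I receptor, had the largest difference of all 39 genes. It read 2474 and 2945 in null cells, 3085 after reconstitution, and 24.2 and 106 with GFP and LacZ, 55.4 with full-length PREX2, and 89.2, 251 and 169 with K278*, E824* and Q1430*. The lowest null-line value was more than 9-fold above the highest wild-type value, that with E824*, and the log2 difference was 5.08 (SE 0.518, adjusted p = 0.000975), or 4.38 without the wild-type GFP array. Herc6, the main ISG15 ligase of the mouse, read 603 and 617 in null cells, 631 after reconstitution, and 47.4 and 81.2 with GFP and LacZ, 77.2 with full-length PREX2, and 112, 62.7 and 84.1 with K278*, E824* and Q1430*. The 3 null-line values of Herc6 lay very close together (log2 difference 2.86, SE 0.274, adjusted p = 0.000796). Ube2l6, the conjugating enzyme, read 239 and 203 in null cells, 148 after reconstitution, and 98.3 and 144 with GFP and LacZ, 107 with full-length PREX2, and 95.4, 94 and 133 with K278*, E824* and Q1430*. Its reconstituted value lay just above the highest wild-type value; the difference from control vector did not pass (log2 0.77, SE 0.245, adjusted p = 0.0668), whereas that between the lines did (0.60, SE 0.187, adjusted p = 0.0425). Uba7, the activating enzyme, read 154 and 171 in null cells, 229.6 after reconstitution, and 88.2 and 157 with GFP and LacZ, 106 with full-length PREX2, and 91.2, 156 and 153 with K278*, E824* and Q1430*. Here the lines overlapped at the LacZ and E824* arrays (log2 difference 0.38, SE 0.31, adjusted p = 0.423). The other 2 probe sets of Uba7, both dimmer, were called higher between the lines (log2 differences 0.53 and 0.68).

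All 3 IFIT genes, whose products bind viral RNA and block its translation, were higher in the null line, but by very different amounts. Ifit1 read 2456 and 3542 in null cells, 4201 after reconstitution, and 118 and 346 with GFP and LacZ, 229.6 with full-length PREX2, and 248, 669 and 408 with K278*, E824* and Q1430*. Ifit3 read 4061 and 5977 in null cells, 5811 after reconstitution, and 386 and 1078 with GFP and LacZ, 901 with full-length PREX2, and 862, 1345 and 1337 with K278*, E824* and Q1430*. Ifit1 and Ifit3 had log2 differences of 3.69 (SE 0.532, adjusted p = 0.00417) and 2.88 (SE 0.453, adjusted p = 0.00578). Ifit2 read 2283 and 2205 in null cells, 2101 after reconstitution, and 1339.8 and 1323 with GFP and LacZ, 1211 with full-length PREX2, and 1325, 1431 and 1446 with K278*, E824* and Q1430*. Its difference was only 0.74 but its spread was small (SE 0.119, adjusted p = 0.00616), and the lines did not overlap.

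**Figure D2:**
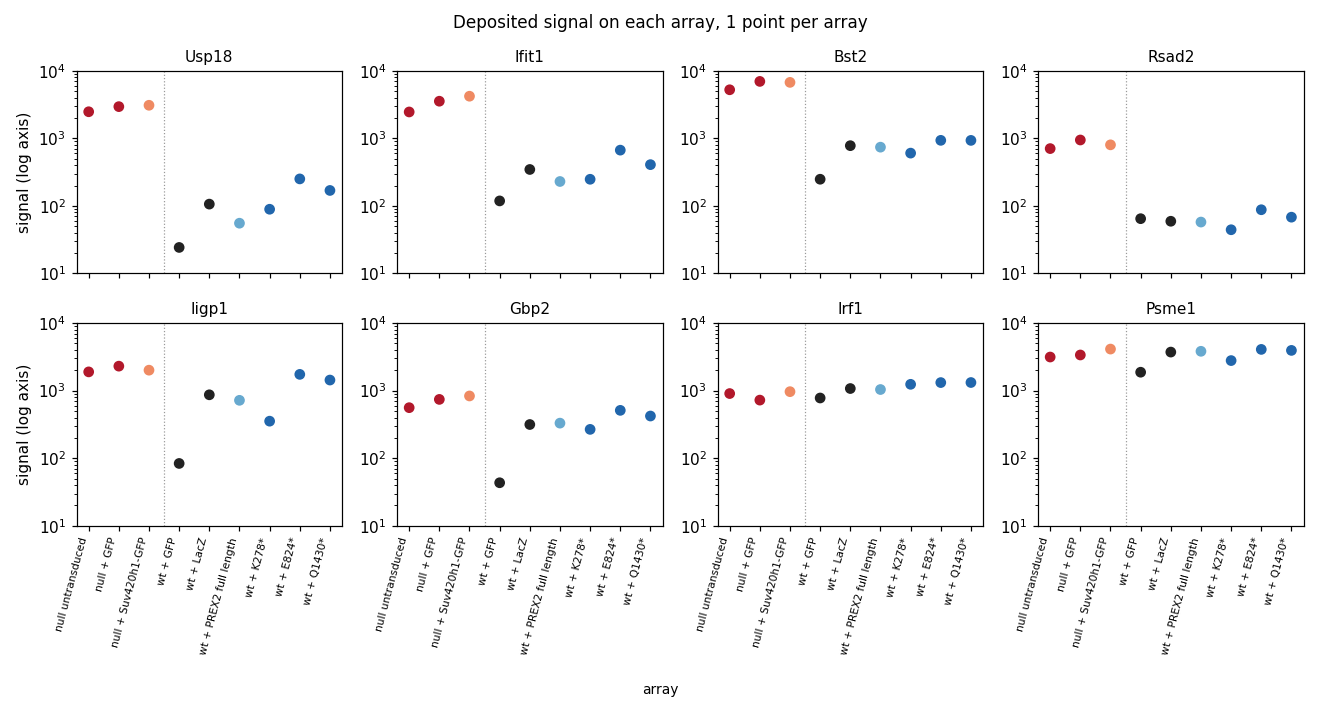
Signal on each of the 9 arrays (log axis, 1 point per array) for 8 genes, with null-line arrays left of the dotted line and wild-type-line arrays right of it. Usp18, Ifit1, Bst2 and Rsad2 separate the lines, Iigp1 and Gbp2 show a low wild-type GFP point with the E824* and Q1430* points closest to the null line, and Irf1 and Psme1 overlap.

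The interferon-inducible GTPases, which attack vacuoles that hold parasites and bacteria or block viruses, varied widely within the wild-type line. All 6 tested were above 2-fold in the null line, yet only 3 passed. Irgm1, a regulator of the immunity-related GTPases, read 4929 and 4994 in null cells, 5028 after reconstitution, and 679 and 901 with GFP and LacZ, 849 with full-length PREX2, and 829, 1069 and 922 with K278*, E824* and Q1430*. Its arrays were tight in both lines, and it had the smallest adjusted p of the 39 genes (log2 difference 2.63, SE 0.179, adjusted p = 0.000191). Igtp, another of this family, read 1084 and 1325 in null cells, 1559.9 after reconstitution, and 14.6 and 328 with GFP and LacZ, 312 with full-length PREX2, and 266, 538 and 503 with K278*, E824* and Q1430*. The GFP control value of Igtp was far below the other 5 wild-type values. Its log2 difference of 3.37 (SE 0.878, adjusted p = 0.0356) was 1.79 without that array, still called higher. Ifi47 read 651 and 702 in null cells, 609 after reconstitution, and 169.7 and 356 with GFP and LacZ, 258 with full-length PREX2, and 339, 503 and 461 with K278*, E824* and Q1430* (log2 difference 1.36, SE 0.32, adjusted p = 0.0251; 0.88 without the GFP array, adjusted p = 0.0507).

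The other 3 GTPases did not pass. Iigp1, an effector that coats the vacuole of Toxoplasma, read 1895 and 2304 in null cells, 2008 after reconstitution, and 83.6 and 868 with GFP and LacZ, 719 with full-length PREX2, and 353, 1741 and 1435 with K278*, E824* and Q1430*. Its E824* value was close to the untransduced null value, and the difference of 2.76 (SE 1.02, adjusted p = 0.101) was 1.24 without the GFP array. Gbp2, a guanylate-binding protein, read 559 and 742 in null cells, 834 after reconstitution, and 43.3 and 315 with GFP and LacZ, 330.3 with full-length PREX2, and 267, 511 and 421 with K278*, E824* and Q1430* (log2 difference 2.14, SE 0.667, adjusted p = 0.0625). The second Gbp2 probe set was called higher (3.02, adjusted p = 0.0238). Gbp3 overlapped between the lines, between 597 and 851 in the null line and between 74 and 604 in the wild-type line (log2 difference 1.82, SE 0.681, adjusted p = 0.104). Of the 2 Mx genes, which encode dynamin-like antiviral GTPases and were too dim to test, Mx1 reached at most 129.6 in the null line and read 4.19 to 60.3 in wild-type cells. Mx2 read 95.3, 123 and 184 in the null line and 3.87 to 20.6 in wild-type cells. With no minimum on signal, Mx2 was called higher (log2 difference 1.88, SE 0.299, adjusted p = 0.0104) and Mx1 was not (1.35, SE 0.464, adjusted p = 0.135).

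Of 11 other antiviral effectors tested, 7 were higher in the null line. Rtp4, an interferon-induced chaperone of membrane receptors, read 3757 and 4502 in null cells, 4948 after reconstitution, and 89.2 and 302 with GFP and LacZ, 193 with full-length PREX2, and 281, 597 and 459 with K278*, E824* and Q1430*. Bst2, or tetherin, which holds budding virus at the cell surface, read 5232 and 6957 in null cells, 6732 after reconstitution, and 248 and 778 with GFP and LacZ, 739.9 with full-length PREX2, and 604, 933 and 932 with K278*, E824* and Q1430*. For both genes every null-line value was more than 4-fold above every wild-type value, with log2 differences of 4.42 (SE 0.497, adjusted p = 0.00149) and 3.69 (SE 0.47, adjusted p = 0.00254).

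Rsad2 (viperin) and Cmpk2, which lie next to each other and whose products act on nucleotides, were both called higher in the null line. Rsad2 read 705 and 945 in null cells, 801 after reconstitution, and 64.6 and 59.2 with GFP and LacZ, 57.6 with full-length PREX2, and 44.3, 87.7 and 68 with K278*, E824* and Q1430*. Cmpk2 read 439.7 and 473 in null cells, 347 after reconstitution, and 31.3 and 50.1 with GFP and LacZ, 61.3 with full-length PREX2, and 62.9, 102 and 59.7 with K278*, E824* and Q1430*. The GFP and LacZ control values of Rsad2 were nearly equal, and its difference was 3.27 with both (SE 0.268, adjusted p = 0.000405) and 3.32 without the GFP array. That of Cmpk2 was 2.89 (SE 0.267, adjusted p = 0.000697).

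Xaf1, a pro-apoptotic partner of XIAP, gave opposite answers from its 2 probe sets. The brighter read 3432 and 4584 in null cells, 4977 after reconstitution, and 132 and 910.0 with GFP and LacZ, 756 with full-length PREX2, and 522, 1269 and 1036 with K278*, E824* and Q1430* (log2 difference 3.38, SE 0.765, adjusted p = 0.0222). The other read 73.2 and 88.6 in null cells, 93.4 after reconstitution, and 118 and 931 with GFP and LacZ, 718 with full-length PREX2, and 496, 1490.2 and 1164 with K278*, E824* and Q1430*. The second was lower in the null line, by a log2 difference of -2.53 between the lines (adjusted p = 0.0203), and by -1.81 against control vector, which did not pass (adjusted p = 0.176). The direction for Xaf1 thus depends on the probe set, which was not tested further. Among the 14 genes with other tested probe sets, 17 of 20 of those gave the same call against control vector, and Xaf1 was the only one of opposite sign.

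Lgals3bp, a secreted glycoprotein, read 2304 and 2577 in null cells, 3022 after reconstitution, and 461 and 997 with GFP and LacZ, 1035 with full-length PREX2, and 994, 1447 and 1308 with K278*, E824* and Q1430* (log2 difference 1.80, SE 0.336, adjusted p = 0.0109). Ifi35, a partner of Nmi, read 6546 and 7475 in null cells, 8178 after reconstitution, and 1733 and 3736 with GFP and LacZ, 3254 with full-length PREX2, and 2838, 4191 and 4201 with K278*, E824* and Q1430* (1.45, SE 0.349, adjusted p = 0.0273). Both separated the lines fully. The remaining 4 effectors did not. Samhd1, which depletes nucleotides, read 1066 and 1097 in null cells, 885 after reconstitution, and 842 and 1102 with GFP and LacZ, 962 with full-length PREX2, and 1055, 946 and 1017 with K278*, E824* and Q1430*, a log2 difference of 0.16 (SE 0.16, adjusted p = 0.517). Nmi read between 1020.4 and 1193 in the null line and between 390.0 and 1691 in the wild-type line, where E824* gave the highest value of all 9 arrays. Sp100, a component of nuclear bodies, and Ifi27 likewise overlapped, with log2 differences of 0.74 and 0.92 that fell to 0.02 and 0.33 without the GFP array.

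Of the PARP and TRIM genes, 5 of 6 were higher in the null line. Parp14, an ADP-ribosyltransferase, read 460.5 and 557 in null cells, 571 after reconstitution, and 21.1 and 69 with GFP and LacZ, 97.8 with full-length PREX2, and 57.2, 138 and 127 with K278*, E824* and Q1430* (log2 difference 3.01, SE 0.427, adjusted p = 0.00388). Parp9 read 1072 and 1244 in null cells, 1298 after reconstitution, and 112 and 384 with GFP and LacZ, 280.2 with full-length PREX2, and 243, 490.0 and 426 with K278*, E824* and Q1430* (2.32, SE 0.505, adjusted p = 0.0192). Parp12 read 1535 and 1768 in null cells, 1915 after reconstitution, and 435 and 697 with GFP and LacZ, 669.9 with full-length PREX2, and 535, 822 and 864 with K278*, E824* and Q1430* (1.54, SE 0.286, adjusted p = 0.0109). All 3 separated the lines, and the GFP control value was the lowest for each. Trim25, a ubiquitin ligase that activates the RNA sensor RIG-I, read 3561 and 3682 in null cells, 3859 after reconstitution, and 877 and 1500.0 with GFP and LacZ, 1484 with full-length PREX2, and 1483, 1756 and 1480.0 with K278*, E824* and Q1430* (1.64, SE 0.237, adjusted p = 0.0042). Trim30a read 1023 and 1285 in null cells, 1384 after reconstitution, and 191 and 587 with GFP and LacZ, 586 with full-length PREX2, and 457, 853 and 788 with K278*, E824* and Q1430*. Its difference of 1.69 (SE 0.484, adjusted p = 0.0481) was just past the threshold, and was 0.94 and not called without the GFP array. The second Trim30a probe set was not called against control vector (0.91, adjusted p = 0.158) or between the lines (0.67, adjusted p = 0.132). Trim21, a cytosolic antibody receptor, overlapped: it read 344 and 271 in null cells, 409 after reconstitution, and 117 and 330.1 with GFP and LacZ, 250.3 with full-length PREX2, and 239, 314 and 347 with K278*, E824* and Q1430* (0.56, SE 0.403, adjusted p = 0.371). Psme1, a subunit of a proteasome activator, read 3144 and 3372 in null cells, 4124 after reconstitution, and 1874 and 3722 with GFP and LacZ, 3823 with full-length PREX2, and 2786, 4077 and 3941 with K278*, E824* and Q1430*. The lines overlapped for Psme1 as well (0.30, SE 0.317, adjusted p = 0.548).

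**Figure D3:**
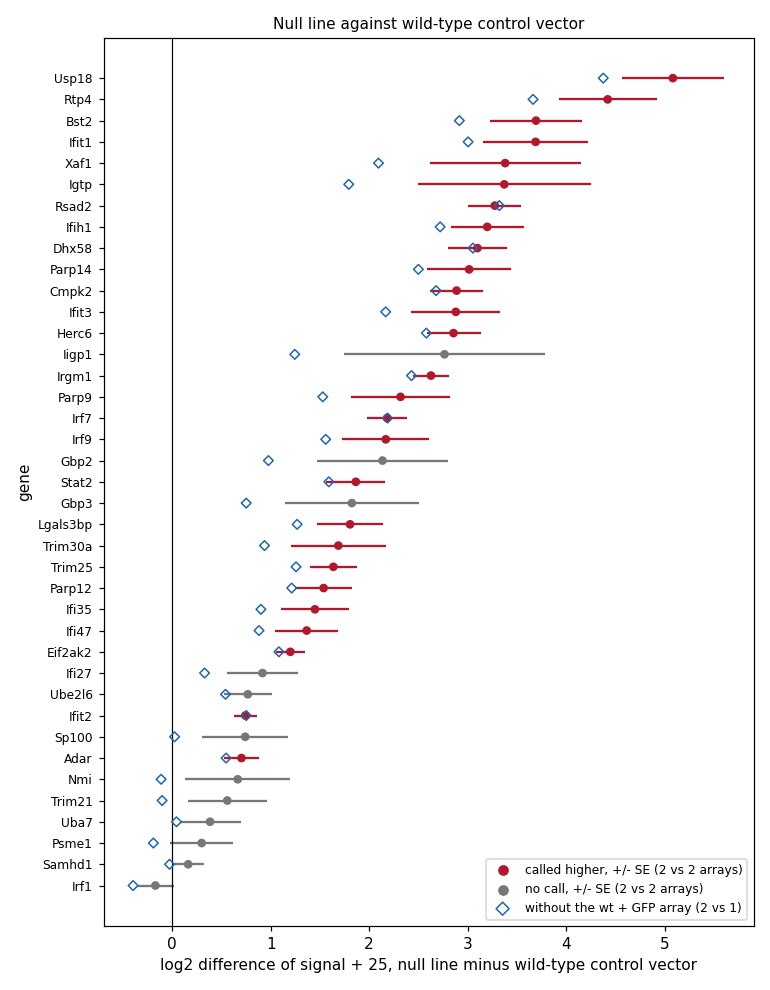
Log2 difference of signal + 25 between the null line and wild-type control vector for the 39 tested genes, with bars of ± SE, red where called higher and grey where not; open diamonds are the differences without the wild-type GFP array. All points but that of Irf1 lie above 0, and the diamonds of Igtp, Iigp1, Gbp2, Gbp3 and Xaf1 lie more than 1 log2 unit to the left of their points.

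Reconstitution with Suv420h1-GFP was not followed by a called change in any of these genes. Limma called 0 of the 39, as it called 0% of all genes tested (1 against 2 arrays), and 0 of the 39 had an unadjusted p below 0.05, which 337 of all 10177 genes had. The log2 differences ran from -0.51 in Ube2l6 to 0.51 in Ifit1 (SE 0.652), with a median of 0.21, and 30 of 39 were above 0, as were 5430 of all genes. The reconstituted array lay above both null arrays in 26 of 39 genes (39.1% of genes tested) and below both in 6 (33.5%): Ube2l6, Ifit2, Ifi47, Cmpk2, Samhd1 and Ifi27. The array that received the fusion was closer to the GFP null array, with a median log2 difference of 0.07, than to the untransduced one, with 0.31. The GFP null array was itself above the untransduced null array in 34 of 39 genes (51.1% of genes tested), by a median of 0.19. With 1 reconstituted array, changes of the size of these array-to-array differences could not be resolved, and larger ones could be missed. On simulated arrays of this design, 16% of 2-fold and 63% of 4-fold changes were called in this comparison. The simulated arrays held planted changes, and their noise was independent between probe sets. These shares may therefore be too high for the measured arrays, where limma made no call. The third brightest Kmt5b probe set, with a log2 difference of 2.21 on reconstitution, was not called either.

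Within the wild-type line these genes differed together between arrays over a wide range. The median log2 signal of the 39 genes was 7.16 on the GFP array, 8.29 with K278*, 8.40 with full-length PREX2, 8.68 with LacZ, 8.93 with Q1430* and 9.28 with E824*, and 10.09 to 10.37 in the null line. The medians describe array order, since each is taken over the same probe sets. The GFP array was the lowest of the 6 in 33 of 39 genes, as in 34.8% of genes tested. The exceptions were Irf7, Dhx58, Adar, Ube2l6, Ifit2 and Rsad2. E824* was the highest in 27 of 39 (25%) and Q1430* in 6 (11.7%), and together they were above the other 4 arrays in 29 of 39 (17.1%).

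The 2 control vectors differed more than the PREX2 arrays did from LacZ. LacZ exceeded GFP by a median log2 difference of 1.03, from -0.09 in Rsad2 to 3.16 in Igtp, and by more than 2-fold in 20 of 39 genes (5.5% of genes tested). Against LacZ alone, E824* was higher by a median of 0.42 (-0.50 in Ube2l6 to 1.07 in Usp18) and Q1430* by 0.22. K278* was lower by a median of -0.28, and below LacZ in 32 of 39 genes (53.4% of genes tested), with the largest gap, -1.24, in Iigp1. Full-length PREX2 stood at -0.08, and below LacZ in 29 of 39 (51.7%). The truncated proteins thus lay on both sides of LacZ, and E824* and K278* differed by a median of 0.61, reaching 2.22 in Iigp1. These are single arrays with no replicate of any construct, so the differences have no test. E824* stayed below the untransduced null array in 32 of 39 genes (48.4% of genes tested), by a median of 0.88 and by 3.18 in Usp18. The exception at the other end was Nmi, 0.72 higher with E824*.

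**Figure D4:**
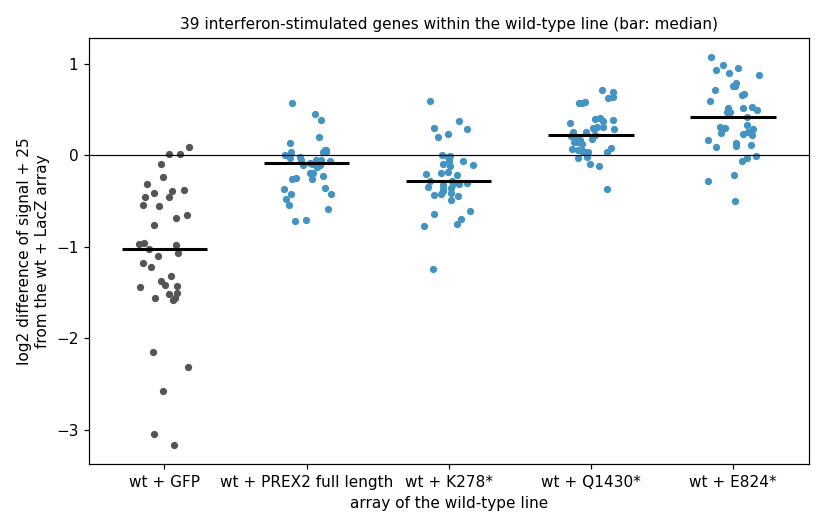
Each point is 1 of the 39 tested genes, drawn as its log2 difference of signal + 25 from the LacZ array on each other array of the wild-type line; bars mark the medians. The GFP points lie mostly below 0 and the bars for E824* and Q1430* lie above 0 at 0.42 and 0.22.

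None of the interferon-stimulated genes passed in the comparisons of PREX2 arrays. Truncated PREX2 against control vector (3 against 2 arrays) gave 0 calls of 39 in limma, beside 0.00983% of genes tested called higher, although 37 of 39 differences were above 0 (5231 of all genes) and 12 had an unadjusted p below 0.05 (2.73% of all genes). The median was 0.63, against 0.007 for all genes, and the differences were widest in Igtp (1.90, SE 0.801), Iigp1 (1.67, SE 0.931) and Gbp2 (1.43, SE 0.609), each with an adjusted p of 0.844. Without the GFP array the median was 0.08. Without the LacZ array it was 1.18, and Igtp and Gbp2 were called higher (adjusted p = 0.0307 and 0.0372), as were 0.587% of all probe sets tested. Only Stat2, Irf7, Irf1, Dhx58 and Cmpk2 had all 3 truncated values above both controls, 5 of 39 beside 6.66% of genes tested. Full-length PREX2 against control vector (1 against 2) gave 0 calls in limma, with 0 unadjusted p below 0.05 and a median of 0.36, which was -0.08 without the GFP array and 0.93 without LacZ. Truncated against full-length PREX2 (3 against 1) also gave 0 calls, 0 unadjusted p below 0.05 and a median of 0.20, with differences from -0.27 to 1.18 in Usp18.

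Some other measures also changed over the wild-type arrays, not all in the order of the medians of the interferon-stimulated genes. Summed signals of 11 macrophage and dendritic markers had that order, from 884 with GFP to 1989 with E824*, and were 1096 to 1478 in the null line. The 4 of these markers bright enough to test were Lyz2, Csf1r, Cd74 and Cd68, while Ptprc, Itgam, Tyrobp and Aif1 stayed at or below 45.3 on all arrays. Between truncated PREX2 and control vector, the brightest probe sets of Lyz2, Csf1r and Cd74 had log2 differences of 0.845, 0.47 and 0.35. Cd68 went the other way, at -0.31, and none of the 4 was called. The summed signal of 12 fibroblast markers was also lowest with GFP (169795) and K278* (177992) and highest with E824* (237671), and was 166459 to 179665 in the null line. With Q1430* (224056), however, it lay below full-length PREX2 (224354) and LacZ (230716). Decorin (Dcn) alone went from 962 with GFP to 27342 with E824*. The summed signal of 5 endothelial markers had the same order over the wild-type arrays as the medians of the interferon-stimulated genes: 211 with GFP, 321 with K278*, 429 with full-length PREX2, 491 with LacZ, 611 with Q1430* and 623 with E824*. It was 149 to 258 in the null line. Tek, the only one of the 5 bright enough to test, went from 55 with GFP to 488 with E824*, while Pecam1 and Cdh5 stayed at or below 49.8 on all arrays. The summed signals of 3 lymphoid markers were 47 or less and those of 5 epithelial markers 297 to 577. The signal ratio of the 3′ to the 5′ control probe set, an array's measure of RNA quality, was 0.815 to 0.922 for Gapdh and 1.15 to 1.36 for Actb, lowest for Gapdh with GFP. Their part in the results was not tested.

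The other genes of the interferon pathway were called about as often as genes at large. Of 36 such genes, 27 were tested, and 3 were higher and 2 lower in the null line against control vector, beside 10.2% and 10% of all genes, with a median log2 difference of 0.08 (-2.23 to 1.79). Interferon genes themselves were at the floor of the array. Ifnb1 read 42.7, 49.7 and 48.4 in the null line, 16 to 46.4 in wild-type cells, and Ifna1, Ifna2, Ifna4, Ifna5 and Ifng read at most 48.3 on any array. An interferon transcript at these signals cannot be ranked between arrays.

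The receptor chains showed no called difference from control vector. By their brightest probe sets, Ifnar1 and Ifnar2, the type I receptor, differed by -0.08 and -0.20 on the log2 scale. Ifngr1 and Ifngr2, the type II receptor, differed by 0.11 and -0.05, and Il10rb by -0.28. The other tested probe sets of Ifnar2 were not called against control vector either (-0.548 and -0.55), but were called lower between the lines (-0.72 and -0.70). Ifnlr1 was too dim to test. Jak1, a kinase on all of these receptors, was lower in the null line: it read 1413 and 1466 in null cells, 1552 after reconstitution, and 3445 and 3613 with GFP and LacZ, 3932 with full-length PREX2, and 3745, 3791 and 3879.7 with K278*, E824* and Q1430* (log2 difference -1.28, adjusted p = 0.000457). Tlr4, the receptor for bacterial lipopolysaccharide, was also lower, at 77.8 and 123 in null cells, 34.5 after reconstitution and between 522 and 605 in the wild-type line (-2.23, adjusted p = 0.000663). For the kinase Jak2, the brightest probe set was not called against control vector in limma (log2 difference -0.57, adjusted p = 0.12). Its second probe set was called lower (-0.905, adjusted p = 0.0135).

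The 3 pathway genes that were higher were Ddx58 (1.75, adjusted p = 0.0104), which encodes the RNA sensor RIG-I, Tlr3 (1.79, adjusted p = 0.00707), a receptor for double-stranded RNA, and Irf2 (0.74, adjusted p = 0.0166), a repressor of some interferon targets. Ddx58 read 1418 and 1506 in null cells, 1693 after reconstitution, and 299 and 581 with GFP and LacZ, 442 with full-length PREX2, and 539, 871 and 753 with K278*, E824* and Q1430*. Its wild-type order, with GFP lowest and E824* highest, was that of most interferon-stimulated genes. Between the whole lines, 6 pathway genes were higher (Ifngr1, Irf2, Ddx58, Tlr3, Ticam1 and Ikbke) and 5 lower (Il10rb, Jak1, Jak2, Tlr4 and Sting1), 11 of 27 beside 16.7% higher and 17.8% lower over all genes. The inhibitors of the pathway gave no call in either direction.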

How the data were processed

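Biotin-labelled RNA from 9 fibroblast samples was measured on Affymetrix mouse arrays. What the authors deposited is an intensity per probe set, made with MAS5 according to the submitters' processing notes and linear in scale; its version and scaling target were not given in the sources used here. Signals were transformed as log2(signal + 25), so fold changes of dim genes are understated. Of 45037 probe sets (64 controls left out), the 19090 with a mean signal of at least 100 were tested, 10177 genes by their brightest probe set. A single limma fit (version 3.58.1, R 4.3.3) held all arrays as 5 group means, with an intensity trend and 4 degrees of freedom left. P-values were two-sided and adjusted by Benjamini-Hochberg over all tested probe sets, with a threshold of 0.05. The procedure was tested on simulated data. A lone array was taken to vary as the replicated groups do, and the number of arrays limits the precision.

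Genes were named from the platform annotation, only where a probe set carried 1 symbol. Promoters came from RefSeq. Every listed gene with a probe set was named, and values on every array were given for the 2 largest and the smallest differences in each functional group and for genes that passed in another comparison. The genes and lists were chosen with earlier results of these data known. Alternatives were other offsets (5 and 100), no minimum or 200, quantile normalization, no trend, the compared groups alone, the second probe set of a gene, and each array of a replicated group left out.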

Additional observations from a re-analysis of the deposited data

How the results depend on the processing

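The count of genes higher in the null line than in control vector lay between 13 and 35 of those tested when each array was left out, and the median log2 difference between 1.26 and 2.44. Between the whole lines the count was 22 to 35, and 0 to 1 were lower: Irf1 without the GFP control array. With the second probe set of a gene 1 was lower, Xaf1 (-2.53), which was -1.81 against control vector. Truncated PREX2 against control vector gave 0 to 2 genes higher and a median of 0.08 to 1.18. The median was 0.07 to 0.31 on reconstitution, -0.08 to 0.93 for full-length PREX2 and 0.07 to 0.36 for truncated against full-length PREX2. Against control vector, uncalled differences changed sign in 5 genes, Irf1 without the LacZ array and the others without the GFP array: over the arrays left out, Irf1 lay between -0.40 and 0.056, Samhd1 between -0.027 and 0.35, Nmi between -0.11 and 1.44, Trim21 between -0.10 and 1.22, and Psme1 between -0.19 and 0.79. Other offsets, signal minimums, quantile normalization and no intensity trend left 22 to 28 genes higher against control vector. With the compared groups alone, 7 calls were lost there: Adar, Igtp, Ifi47, Xaf1, Ifi35, Parp9 and Trim30a. No paired analysis was possible because the labels number no replicates.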

Other observations

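Several of the genes lie near each other in the genome by RefSeq gene order. Ifit2 and Ifit3 are next to each other on chromosome 19, with 0 protein-coding genes between them, yet their log2 differences between the null line and control vector were 0.74 and 2.88. Rsad2 and Cmpk2, also adjacent, on chromosome 12, differed alike at 3.27 and 2.89. Parp9 and Parp14, on chromosome 16 with 1 gene between them, were at 2.32 and 3.01, and Gbp2 and Gbp3, on chromosome 3 with 1 between, at 2.14 and 1.82 with neither called. Irf9 and Psme1, on chromosome 14 with 3 between, were at 2.17, called higher, and 0.30, not called. Differences within these pairs were not tested.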
